A study of Mus musculus with 4 samples.

Results

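The 8 genes described here are Nfe2l2, which encodes the transcription factor NRF2, and the antioxidant genes Hmox1, Nqo1, Txnrd1, Gclm, Gclc, Srxn1 and Slc7a11. They were taken by name from the 32287 gene features of both matrices, and all 8 were found. Their levels were followed across marker-defined cell classes of the mouse spinal cord with and without injury. The cells were tdTomato+ cells sorted from Cx30-tdTomato mice, in which tamoxifen-induced Cre under the gene of connexin 30, a gap junction protein of astrocytes, turns on the reporter. The mice were 8 to 12 weeks old, and both groups carried the reporter and had received a pool of enhancer viruses in the blood. Injured mice had a contusion at T9, 14 days after the virus, and 5 mm of cord was taken 3 days later. Uninjured cords were taken at the same level. Animals of a condition, 1 to 2 of each sex per the series description, were pooled into 1 gene expression library, so no difference between the conditions has a replicate check.

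NRF2 is held low by KEAP1, which delivers it to the proteasome, and oxidants or electrophiles release it from this control. Freed NRF2 pairs with small MAF proteins at antioxidant response elements and switches on genes of glutathione synthesis, thioredoxin cycling and haem breakdown. In the nervous system astrocytes are known as the main site of this response. All 8 are protein-coding genes, placed here on GRCm38. Several targets also have other inputs, and Hmox1 in particular is held down by the haem-binding repressor BACH1.

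After filtering, the injured library held 879 cells with 8499672 gene UMIs (unique molecular identifiers, 1 per captured transcript), and the uninjured library held 4159 cells with 15543460. Astrocyte-like cells numbered 412 injured and 3103 uninjured, with medians of 3702 and 3262 gene UMIs per cell. All 10 astrocyte markers had UMIs in both libraries. Cells of other classes passed the sort, among them 126 injured and 31 uninjured microglia-like cells. Different clusters held the astrocyte-like cells of the libraries: cluster 1 held 76.9% of the injured ones and 0.387% of the uninjured ones. The uninjured cells were spread over clusters 4, 8, 9 and 11. Cluster 10, with 691 uninjured and 10 injured cells, was unnamed and left out of the astrocyte-like class. Its best score was for astrocytes and all 10 astrocyte markers were found. Its 10 leading genes, those most above the other cells, held more neuron than astrocyte markers. The libraries shared 7 cell barcodes, 3 of them among kept cells. By X- and Y-linked transcripts, 250 injured cells scored female and 315 male, against 2 and 2770 uninjured cells. The near absence of female uninjured cells conflicts with the series description, which gives both sexes in each condition.

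In astrocyte-like cells, 7 of the 8 genes were higher in the injured library and 1, Gclc, was lower, each by more than its counting error. By the same interval rule 33.6% of the 9419 genes tested were higher and 31.8% lower. Hmox1 differed most, followed by Srxn1, Txnrd1 and Nqo1, and these 4 passed a 2-fold difference. None of the 8 was at least 2-fold lower. Over all genes tested, 13.2% were at least 2-fold higher and 7.55% at least 2-fold lower in the same comparison. The median log2 ratio (with 1 CPM added to both sides) was 1.16 over the 8 genes and 0.01 over all genes tested. Values are CPM, UMIs of a gene per 1000000 gene UMIs summed over the cells of a class, and ratios carry exact 95% intervals for counting error only.

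Hmox1 (chr8:75093621-75100589, + strand) encodes the inducible haem oxygenase, which splits haem into biliverdin, iron and carbon monoxide. It had 422 UMIs (187 CPM) in injured and 105 UMIs (9.27 CPM) in uninjured astrocyte-like cells, a ratio of 20.2 (16.3 to 25.2). Its log2 ratio lay above 99.3% of the genes tested. In the uninjured class 59 of the 105 UMIs came from 1 cell, which lay in cluster 1. Without the highest cell of each library Hmox1 was at 167 and 4.06 CPM, a log2 ratio of 5.06 instead of 4.19. Injured cells with an Hmox1 UMI made up 22.6% of the class (18.6 to 26.9%) and uninjured ones 1.48%. At an equal depth of 1000 gene UMIs per cell these shares were 7.96% and 0.395%.

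Srxn1 and Txnrd1 belong to the thiol-reducing systems. Srxn1 (chr2:152105516-152111376, +) encodes sulfiredoxin, which repairs over-oxidised peroxiredoxins, and was at 54.1 CPM in injured and 6.62 CPM in uninjured astrocyte-like cells. The ratio was 8.17 (6.08 to 11.0). Txnrd1 (chr10:82833951-82897712, +), the cytosolic thioredoxin reductase, was at 93.5 and 23.5 CPM, a ratio of 3.98 (3.31 to 4.79). For neither gene did 1 cell weigh much, since the highest injured cell held 4.92% of the Srxn1 UMIs and 3.79% of those of Txnrd1. Nqo1 (chr8:107388225-107403206, -), a quinone reductase often used as an NRF2 readout, was low in both libraries at 19.9 and 7.24 CPM (45 and 82 UMIs). Its ratio was 2.75 (1.87 to 4.01).

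The genes of glutathione synthesis differed in direction. Gclm (chr3:122245557-122270732, +) and Gclc (chr9:77754535-77794485, +) encode the modifier and the catalytic subunit of glutamate-cysteine ligase, the enzyme of the rate-limiting step. Gclm was at 117 CPM in injured and 58.9 CPM in uninjured astrocyte-like cells, a ratio of 1.99 (1.72 to 2.30), just under 2-fold. Gclc was at 20.4 CPM (46 UMIs) and 37.1 CPM (420 UMIs), a ratio of 0.550 (0.396 to 0.747). The intervals of the pair lay on opposite sides of 1. At 1000 gene UMIs per cell, 9.81% of injured and 5.07% of uninjured cells had a Gclm UMI, against 0.796% and 3.89% for Gclc. Over all kept cells with an Aldh1l1 UMI, whatever their class, the log2 ratio of Gclc was -0.07 instead of -0.83. Ependymal-like cells, the class with the highest Gclc level, made up 16.4% of the injured and 0.745% of the uninjured library. Their part in this value was not tested. Slc7a11 (chr3:49892526-50443614, -), the transport subunit of the cystine-glutamate exchanger that brings in cystine for glutathione, was at 97.5 and 65.7 CPM, a ratio of 1.48 (1.27 to 1.73). Nfe2l2 itself (chr2:75675513-75704641, -) was at 107 and 76.1 CPM, a ratio of 1.40 (1.21 to 1.62), and its log2 ratio lay above 71.3% of the genes tested.

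**Figure D1:**
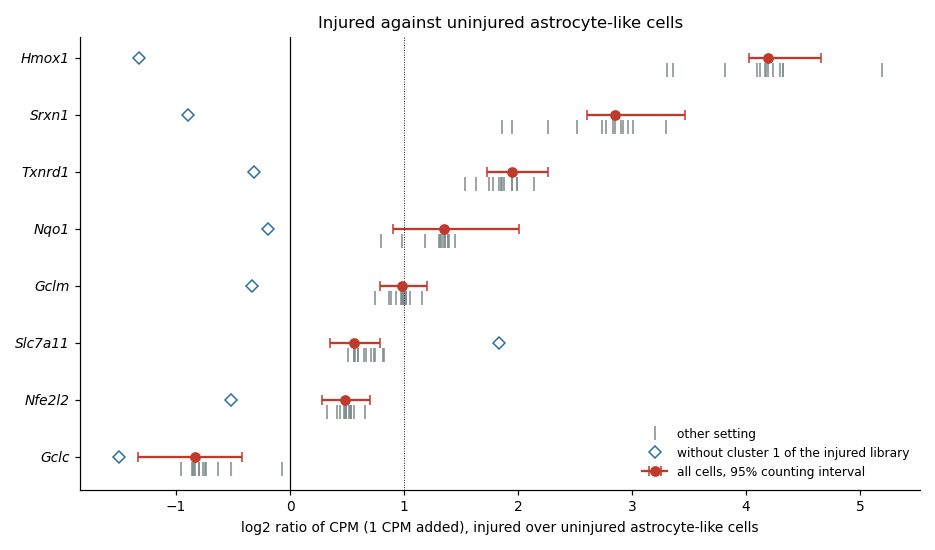
Log2 ratio of CPM (1 CPM added), injured over uninjured astrocyte-like cells, for each of the 8 genes. Red points are all cells, with bars for the 95% counting interval of the ratio without added CPM, grey ticks are other settings of pseudocount, filter, scaling and clustering, open diamonds leave out the injured cells of cluster 1, and the dotted line marks 2-fold. Hmox1 (4.19) and Srxn1 (2.85) lie farthest to the right, Gclc (-0.83) lies left of 0, and without cluster 1 only Slc7a11 lies right of 0.

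The stretch before the transcription start is shown for the genes in which antioxidant response element letters were found, because they are the sequence feature that NRF2 targets are known for. RefSeq windows of 250 bases (GRCm38.p6) were at hand for 6 of the genes, in 8 windows; Hmox1 and Gclc had no entry. The core TGACNNNGC, searched on both strands (opposite strand GCNNNGTCA), was in 3 windows, those of Gclm, Nfe2l2 and 1 of the 3 starts of Txnrd1. Of all 32851 RefSeq windows of this length, 10.2% held it. Each window is written 5′ to 3′ on the strand of the gene, with the match in capitals.
Gclm, chr3:122245307-122245556, + strand: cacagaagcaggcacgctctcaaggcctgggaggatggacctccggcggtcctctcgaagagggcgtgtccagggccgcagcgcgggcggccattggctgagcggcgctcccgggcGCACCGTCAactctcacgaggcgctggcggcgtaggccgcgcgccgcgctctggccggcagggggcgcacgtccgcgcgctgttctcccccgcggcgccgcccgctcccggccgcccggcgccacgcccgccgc
Txnrd1, chr10:82858956-82859205, + strand: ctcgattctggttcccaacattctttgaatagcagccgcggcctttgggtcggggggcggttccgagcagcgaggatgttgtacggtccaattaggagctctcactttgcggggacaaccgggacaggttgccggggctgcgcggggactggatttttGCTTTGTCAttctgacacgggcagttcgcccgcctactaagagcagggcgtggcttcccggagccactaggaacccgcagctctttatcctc
Nfe2l2, chr2:75704664-75704913, - strand: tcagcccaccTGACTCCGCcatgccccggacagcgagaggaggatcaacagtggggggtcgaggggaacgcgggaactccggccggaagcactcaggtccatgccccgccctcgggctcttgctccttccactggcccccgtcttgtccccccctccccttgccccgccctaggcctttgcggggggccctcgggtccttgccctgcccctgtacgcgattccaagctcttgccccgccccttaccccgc

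In Gclm the first base of the match lay 134 bases before the start, in Txnrd1 92 bases and in Nfe2l2 240 bases. The first 2 matches are on the opposite strand and that of Nfe2l2 is on the strand of the gene. The window of Srxn1, the gene with the second largest ratio, held no core, and it was searched again with the looser TGANNNNGC (opposite strand GCNNNNTCA), which includes every core match. This search was added after the first was seen. It matched 6 of the 8 windows and 35.2% of all windows. In Srxn1 there were 3 matches, of which the one 45 bases before the start reads TGAGTCAGC. Its letters TGAGTCA also match the AP-1 site, given in the study as TGA(G/C)TCA. Neither the core nor the looser form was in the window of Nqo1. A match gives letters only, and no binding was measured here.
Srxn1, chr2:152105274-152105523, + strand: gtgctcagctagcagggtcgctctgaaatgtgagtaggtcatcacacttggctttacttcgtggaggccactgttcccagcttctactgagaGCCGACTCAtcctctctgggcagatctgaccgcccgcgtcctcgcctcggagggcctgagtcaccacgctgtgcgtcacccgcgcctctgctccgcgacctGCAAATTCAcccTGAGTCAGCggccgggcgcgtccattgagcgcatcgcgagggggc

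Within the injured library, nearly all UMIs of Hmox1, Srxn1 and Txnrd1 lay in cluster 1, whose 317 cells held 85.7% of the gene UMIs of injured astrocyte-like cells. It held 421 of 422 Hmox1 UMIs, 121 of 122 Srxn1 UMIs and 205 of 211 Txnrd1 UMIs. In cluster 1 Hmox1 was at 218 CPM, and in the other 95 injured cells at 3.11 CPM (1 UMI), a ratio of 70.1 (12.5 to 2774). Those 95 cells were shallower, with a median of 2445 gene UMIs against 4023. Gclm and Nfe2l2 were also higher in cluster 1, with ratios of 2.77 (1.65 to 5.03) and 2.19 (1.34 to 3.83). Slc7a11 was the exception, at 74.4 CPM in cluster 1 and 236 CPM outside it, a ratio of 0.315 (0.237 to 0.422). For Nqo1 (43 of 45 UMIs in cluster 1) and Gclc (42 of 46) the interval held 1, at 0.932 to 30.5 and 0.634 to 6.71. With its interval the ratio lay above 1 for 5 of the 8 genes and for 22.6% of all genes tested, and below 1 for 1 gene and 13.9%.

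Hmox1, Srxn1 and Slc7a11 were among the 2000 variable genes that made the clusters, so this split is in part given by them. When the 8 genes and the pathway list were left out of the clustering, the largest injured astrocyte-like cluster (335 cells) still held 417 Hmox1 UMIs, with 1 outside it, and 123 Srxn1 UMIs, with 0 outside it. The Slc7a11 split was lost, at 94.7 CPM inside and 101 CPM outside. Without the injured cells of cluster 1 the median log2 ratio of the 8 genes was -0.43 and that of all genes tested -0.19. Hmox1, Nqo1 and Srxn1 then had 1, 2 and 1 injured UMIs and did not pass the filter. Of the 5 that passed, 1 gene, Slc7a11, was at least 2-fold higher, as were 4.72% of all genes tested.

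**Figure D2:**
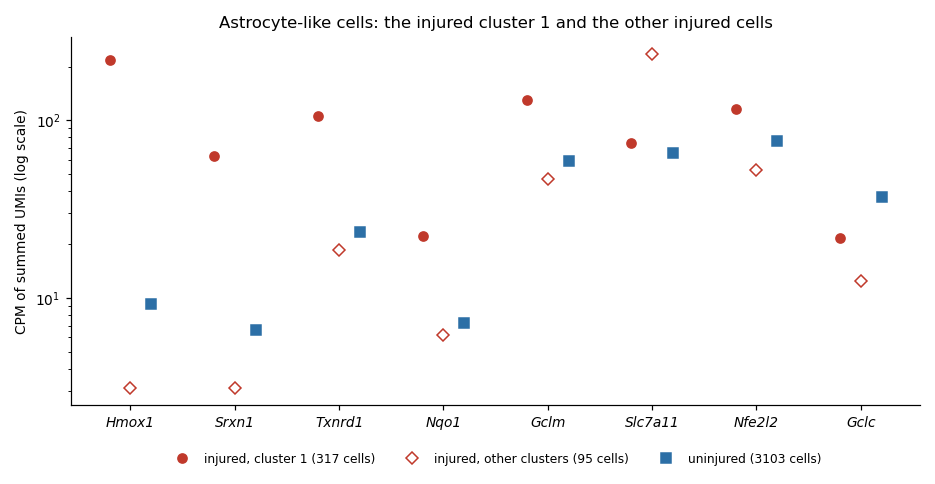
CPM (log scale) of each gene in injured astrocyte-like cells of cluster 1, in the other injured astrocyte-like cells and in uninjured astrocyte-like cells. Hmox1 (218 against 3.11 CPM) and Srxn1 (62.5 against 3.11 CPM) show the widest gap between the injured groups, and Slc7a11 (74.4 against 236 CPM) has the opposite order.

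Clusters 4 and 8 were the ones that both libraries filled with at least 20 astrocyte-like cells. Hmox1 and Srxn1 helped to make the clusters, and cluster 1 held 421 of 422 injured Hmox1 UMIs and 121 of 122 injured Srxn1 UMIs. Levels of these genes in the injured cells of clusters 4 and 8 were thus in part set by the clustering. In cluster 4 (53 injured and 714 uninjured cells) the interval of the ratio held 1 for all 8 genes. In cluster 8 (30 and 885 cells) it held 1 for 7 genes. By this rule 15.7% of the genes tested differed in cluster 4 and 15.7% in cluster 8. Of the 8 genes, 5 passed the filter of 10 CPM in cluster 4, where 0 differed, and 6 in cluster 8, where 1 differed. These injured cells had few UMIs, for Hmox1 1 in cluster 4 and 0 in cluster 8. In cluster 8 the upper bounds of the ratio were 5.09 for Hmox1, 1.89 for Txnrd1 and 7.41 for Srxn1, each below the ratio of all astrocyte-like cells. Clustering put injured cells there by their likeness to uninjured ones, so these bounds cannot decide on the difference of the whole class. In cluster 4 the bound of Hmox1 was 1273 and that of Txnrd1 4.70, so the ratio of the whole class lay within the interval for these genes. Slc7a11 was the gene that differed in cluster 8, at 393 CPM (70 UMIs) against 88.0 CPM (351 UMIs), a ratio of 4.46 (3.40 to 5.78). A UMI of it was found in 21 of the 30 injured cells, and the 5 highest cells held 54.3% of the 70 UMIs. Slc7a11 was among the genes that made the clusters, so membership of cluster 8 is in part given by it. When the 8 genes and the pathway list were left out of the clustering, 19 injured Slc7a11 UMIs lay outside the largest injured cluster and 196 inside it. The summed level of the 8 fibroblast markers in cluster 8 was 281 CPM injured and 142 CPM uninjured. Fibroblast-like cells are the class with the highest Slc7a11 level, and the part of their RNA in this difference was not tested.

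Lcn2 and Timp1, which encode lipocalin 2 and a metalloproteinase inhibitor, are known markers of reactive astrocytes. Of the 412 injured astrocyte-like cells, 175 had a UMI of either gene. Hmox1 was at 263 CPM in them and at 82.4 CPM in the other 237 cells, a ratio of 3.19 (2.48 to 4.13). Slc7a11 had the opposite order at 69.4 and 136 CPM, a ratio of 0.510 (0.385 to 0.671). For the other 6 genes the interval held 1 (it was off 1 for 21.7% of all genes tested), with Srxn1 at 61.1 and 44.4 CPM. Deeper cells are more likely to show a UMI of Lcn2 or Timp1, and the part of depth in this split was not tested. Timp1 was also among the leading genes of cluster 1, and the overlap of this split with the clusters was not tested.

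Other measures also moved with the injured astrocyte-like cells. The 13 mitochondrial genes summed to 84204 CPM injured and 61138 CPM uninjured. The 9 dissociation and stress genes (such as Fos and Jun) summed to 332 and 94.2 CPM, all 9 with UMIs in both libraries. The 10 microglia markers summed to 170 and 97.9 CPM, with Tmem119 and Csf1r at 0 in the injured class and Tmem119 at 0 in the uninjured one. The microglial C1qa was at 11.1 CPM in injured astrocyte-like cells, 0.192% of its level in microglia-like cells of that library. Hmox1 was at 36.6% of its microglia-like level. The 10 genes of the blood-derived macrophage list summed to 16.8 and 3.53 CPM (6 of 10 with UMIs in both libraries; Ly6c2, Chil3 and Plac8 at 0 in both, Arg1 at 0 in the injured and Ccr2 in the uninjured class). Mural markers summed to 174 and 63.5 CPM (5 and 7 of 8 genes with UMIs) and endothelial markers to 18.6 and 4.24 CPM (7 of 8 in both, Cdh5 at 0). OPC markers summed to 499 and 375 CPM (8 and 7 of 8 genes with UMIs, Gpr17 at 0 in the uninjured class). Neuron markers summed to 230 and 127 CPM (8 of 8 in both) and ependymal markers to 26.6 and 12.2 CPM (6 and 8 of 8). Astrocyte markers were lower, at 12911 and 16599.8 CPM with 10 of 10 present in both. Haemoglobin and Alas2 RNA, the erythroid list, was lower in injured than in uninjured astrocyte-like cells, at 8.86 and 503 CPM. The part of these lists in the ratios above was not tested, beyond the value without mitochondrial genes in the scaling, which was 4.24 for Hmox1 on the log2 scale. At a clustering resolution of 1.0 the OPC-like class held 70 injured cells instead of 41, and the astrocyte-like class 382 instead of 412. Whether OPC-type cells lay in the main astrocyte-like class was not tested.

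The order of the cell classes differed between the 8 genes. In the injured library microglia-like cells were highest for Hmox1, Nfe2l2 and, level with OPC-like cells, Txnrd1. Astrocyte-like cells were highest for Srxn1 and Nqo1, fibroblast-like cells for Slc7a11, ependymal-like cells for Gclc, and endothelial-like and OPC-like cells for Gclm. Ranking covered the 7 classes with at least 20 injured cells and the 6 with at least 20 uninjured cells.

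**Figure D3:**
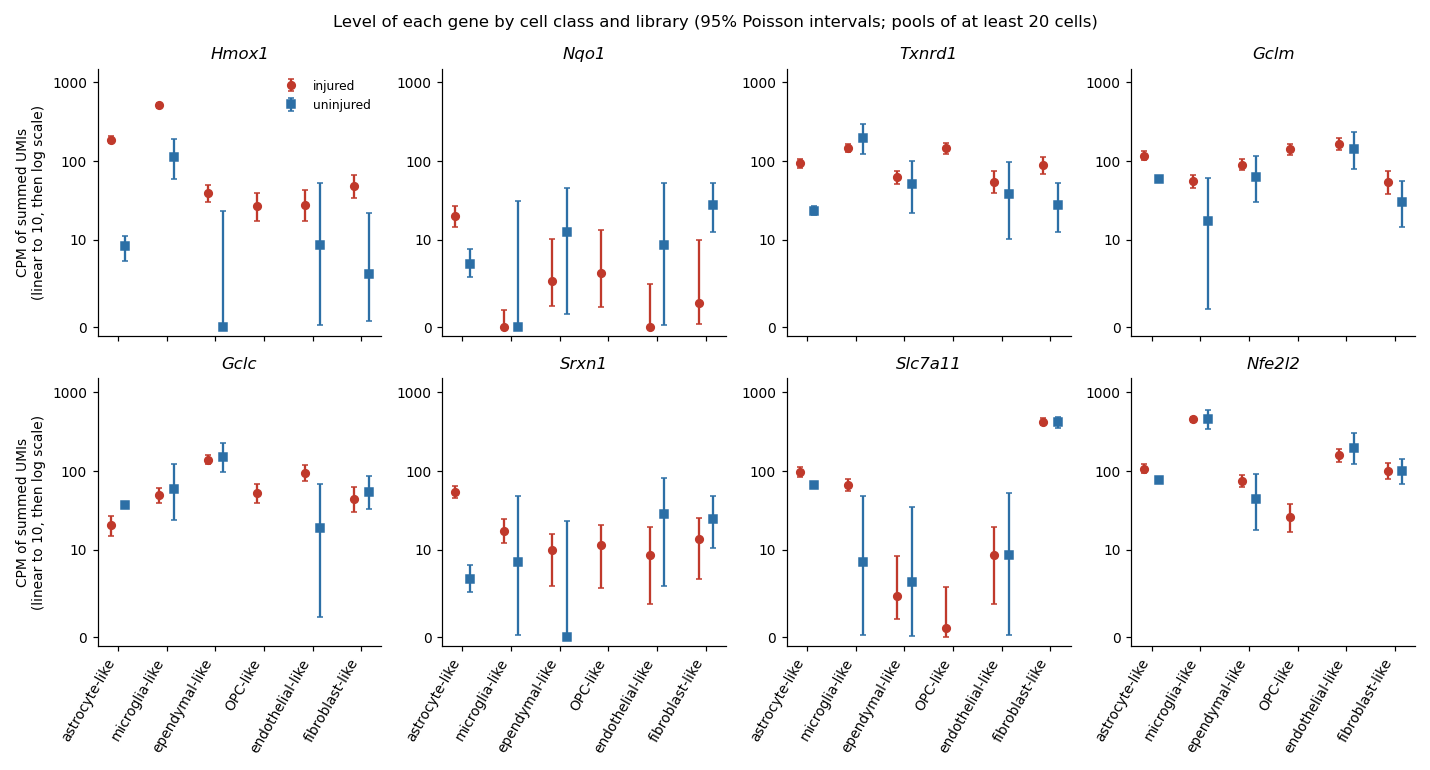
CPM of each gene (linear to 10 CPM, then log scale) in 6 cell classes, injured (red circles) and uninjured (blue squares), with 95% Poisson intervals. The 14 uninjured OPC-like cells are below the minimum of 20 cells and are not drawn. Hmox1 points lie higher in the injured library in the 5 classes drawn in both (in endothelial-like cells within counting error), Slc7a11 is highest in fibroblast-like cells of both libraries, and Nfe2l2 is highest in microglia-like cells of both.

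The regulator came first in microglia-like cells of both libraries. Nfe2l2 was at 456 CPM (861 UMIs) in injured and 453 CPM (53 UMIs) in uninjured microglia-like cells, a ratio of 1.00 (0.761 to 1.35). Endothelial-like cells followed at 159 and 198 CPM, and the step down from microglia-like cells was 2.87-fold (2.36 to 3.50) in the injured library. Injured astrocyte-like (107 CPM) and fibroblast-like (99.8 CPM) cells did not differ beyond counting error. OPC-like cells (oligodendrocyte precursors) were at 25.8 CPM and neuron-like cells at 30.3 CPM, the lowest classes of the injured library, which did not differ beyond counting error.

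Hmox1 had 967 UMIs (512 CPM) in the 126 injured microglia-like cells and 13 UMIs (111 CPM) in the 31 uninjured ones, a ratio of 4.60 (2.68 to 8.67). A single injured cell held 460 of the 967 UMIs, and the 5 highest cells held 70.2%. Without those 5 cells the injured level was 162 CPM. The share of microglia-like cells with an Hmox1 UMI was 60.3% injured and 25.8% uninjured, where injured cells were deeper (medians of 14070.5 and 3169 gene UMIs). At 1000 gene UMIs per cell it was 11.6% (6.47 to 18.7%) and 14.3% (4.03 to 32.7%), with overlapping intervals.

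These cells were then set apart by macrophage genes, a split chosen after the values were seen. Of the 10 genes on the list of blood-derived macrophages, Ccr2, Ly6c2 and Arg1 had no UMI in uninjured microglia-like cells, and 32 of the 126 injured ones had a UMI of at least 1 of them. Hmox1 was at 1490.4 CPM (734 UMIs) in the 32 cells and at 167 CPM (233 UMIs) in the other 94. The single cell with 460 UMIs was among the 32, and without it they were at 599 CPM. Without the 5 highest cells of the class, 4 of them among the 32, the levels were 238 and 139 CPM. P2ry12, a marker of resident microglia, had the opposite order at 87.3 and 335 CPM. Gclm followed Hmox1, at 99.5 and 40.1 CPM. Slc7a11 (10.2 and 87.3 CPM) and Nfe2l2 (331 and 499 CPM) were lower in the 32 cells. Without the 5 highest cells of the class for each gene, Gclm no longer followed Hmox1, at 30.4 and 32.2 CPM. Slc7a11 was then at 10.2 and 19.1 CPM and Nfe2l2 at 286 and 431 CPM. The whole macrophage list summed to 10202 CPM with 10 of 10 genes present in injured microglia-like cells, and to 3661 CPM with 7 of 10 present in uninjured ones. The dissociation and stress list had the reverse order, at 3301 and 14711 CPM, and its part in the ratios of microglia-like cells was not tested.

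**Figure D4:**
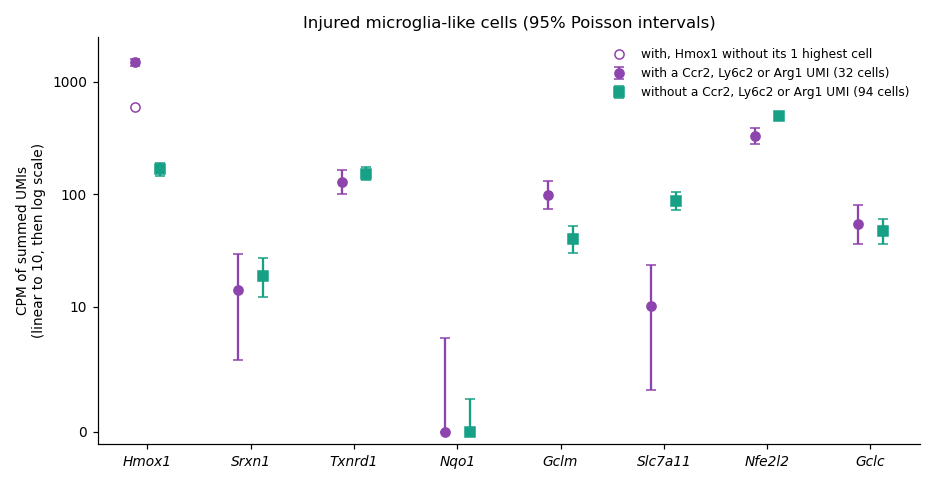
CPM of each gene (linear to 10 CPM, then log scale) in injured microglia-like cells with (32 cells) and without (94 cells) a UMI of Ccr2, Ly6c2 or Arg1, with 95% Poisson intervals. The open circle leaves out the cell with the most Hmox1 UMIs. Hmox1 stands at 1490.4 CPM with (599 CPM without that cell) and 167 CPM without, while Slc7a11 and Nfe2l2 are higher in the cells without.

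The sexes could be compared within the injured library alone. Female microglia-like cells (43) had 742 Hmox1 UMIs at 874 CPM and male ones (60) had 200 UMIs at 220 CPM, a ratio of 3.97 (3.39 to 4.66). The cell with 460 UMIs was female, and without it the ratio was 1.57 (1.31 to 1.89). Without the 5 highest cells it was 1.14 (0.888 to 1.46), an interval that held 1. Sex and animal cannot be told apart here. In astrocyte-like cells the interval of the female to male ratio held 1 for all 8 genes (12.5% of the genes tested were off 1), with Hmox1 at 124 and 157 CPM. In male cells alone, the log2 ratio of Hmox1 between injured and uninjured astrocyte-like cells was 3.82.

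Between the classes of the injured library, which share handling and animals, 7 genes could be set against the 2-fold rule, since Nqo1 was below the minimum mean of 10 CPM. Hmox1, Gclc and Nfe2l2 were at least 2-fold higher in microglia-like than in astrocyte-like cells, and Gclm and Srxn1 at least 2-fold lower. Over the 9526 genes tested, 19.7% were at least 2-fold higher and 29.1% at least 2-fold lower, with a median log2 ratio of -0.23. Hmox1 was 2.74-fold higher (2.44 to 3.07), but without the 32 cells with macrophage UMIs its log2 ratio was -0.16 instead of 1.45. Nfe2l2 was 4.27-fold higher (3.69 to 4.94) and Gclc 2.41-fold higher (1.68 to 3.52). Srxn1 was at 17.5 CPM in microglia-like cells, 0.323 of the astrocyte-like level (0.213 to 0.478), and Gclm at 55.6 CPM, 0.473 of it (0.374 to 0.595). In the uninjured library, on 13 UMIs in 31 cells, Hmox1 was at 111 CPM in microglia-like and 9.27 CPM in astrocyte-like cells, with an interval of the ratio from 6.18 to 21.4.

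Nqo1 had no UMI in the 126 injured microglia-like cells, which by the limit of 3 counts allows a share of cells with a UMI of up to 2.38%. The ratio to injured astrocyte-like cells was at most 0.102 by its interval. It was also at 0 in the 70 injured endothelial-like cells. Injured astrocyte-like cells were the highest class, 3.22-fold (1.37 to 9.24) above OPC-like cells at 6.19 CPM. In fibroblast-like cells Nqo1 was lower in the injured library, with 2 UMIs (2.77 CPM) against 9 UMIs (27.4 CPM), a ratio of 0.101 (0.0106 to 0.489). The fibroblast-like pools were unlike in makeup. They joined cluster 7 (43 injured and 47 uninjured cells) and cluster 13 (0 injured and 48 uninjured cells). The part of this makeup in the fibroblast-like ratios between the libraries, for this and the other genes, was not tested.

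Srxn1 was also highest in injured astrocyte-like cells, 3.10-fold (2.09 to 4.70) above microglia-like cells. In the uninjured library the highest Srxn1 level was that of endothelial-like cells, at 28.3 CPM (3 UMIs), and no pair of neighbouring classes differed beyond counting error. The ratio between the libraries held 1 in each of the other 5 classes compared. Txnrd1 was more evenly spread. In the injured library its levels ran from 147 CPM in microglia-like and 145 CPM in OPC-like cells to 54.7 CPM in endothelial-like cells. It was higher in injured than uninjured fibroblast-like cells, at 88.7 and 27.4 CPM (3.24, 1.60 to 7.40), and in neuron-like cells, at 101 and 28.5 CPM (3.54, 1.29 to 9.85), there with 10 and 9 UMIs. The neuron-like pools were unlike in makeup. Astrocyte markers summed to 646 CPM in the injured pool and 8464 CPM in the uninjured one, and neuron markers to 5701 and 3133 CPM. Mitochondrial genes summed to 270324 and 276532 CPM, and no cluster of the other clusterings was named neuron-like.

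For Slc7a11 the fibroblast-like cells were far above the rest in both libraries, at 426 CPM (307 UMIs) injured and 414 CPM (136 UMIs) uninjured, a ratio of 1.03 (0.837 to 1.27). They stood 4.37-fold (3.66 to 5.21) above injured and 6.30-fold (5.21 to 7.58) above uninjured astrocyte-like cells. At 1000 gene UMIs per cell, 8 of 40 injured and 18 of 88 uninjured fibroblast-like cells had a UMI. OPC-like cells had 1 UMI in 41 injured cells. In microglia-like cells Slc7a11 had 127 UMIs injured and 1 UMI uninjured (67.2 and 8.55 CPM), a ratio of 7.86 (1.38 to 313), and the 5 highest injured cells held 77.2% of the 127.

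Gclc was highest in ependymal-like cells, the ciliated lining of the central canal, at 139 CPM injured and 151 CPM uninjured, a ratio of 0.916 (0.601 to 1.46). Injured astrocyte-like cells were the lowest of the 7 classes for this gene at 20.4 CPM, although the step from neuron-like cells (4 UMIs) was within counting error. In endothelial-like cells Gclc was higher in the injured library, with 71 UMIs (94.8 CPM) against 2 UMIs (18.9 CPM), a ratio of 5.02 (1.34 to 42.3). The 5 highest of these injured cells held 52.1% of the UMIs. Gclm was highest in endothelial-like cells at 164 CPM injured and 142 CPM uninjured (1.16, 0.677 to 2.14), and in the injured library OPC-like cells at 141 CPM did not differ from them beyond counting error.

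Injury ratios of Hmox1 lay above 1 in 2 further classes. Ependymal-like cells had 67 UMIs (39.5 CPM) injured and 0 UMIs uninjured (31 cells). With the uninjured class set at 3 counts this is at least 2.09-fold higher, and 33 of the 67 UMIs came from 1 cell. Fibroblast-like cells had 35 UMIs (48.5 CPM) and 2 UMIs (6.09 CPM), a ratio of 7.97 (2.05 to 68.4). In endothelial-like cells the values were 28.0 and 9.43 CPM and the interval held 1. Over the 5 classes besides astrocyte-like cells, with 20 or more cells in each library, 7 of the 40 ratios lay above 1 with their interval, 1 lay below, and the others held 1 or could not be computed. Of the 40, 32 passed the filter of 10 CPM, these 8 among them. Over all pairs of a gene and a class tested, 8.42% lay above 1 and 11.7% below. The 40 injured cells left out for reaching 50000 gene UMIs had Hmox1 at 97.6 CPM, Txnrd1 and Nfe2l2 at 144 CPM and Nqo1 at 3.01 CPM.

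The wider pathway was followed in a list of 57 other genes, of which 49 passed the filter in astrocyte-like cells. Of these, 19 were at least 2-fold higher and 0 at least 2-fold lower in the injured library, beside 13.2% and 7.55% of all genes tested. With their intervals, 31 lay above 1 and 5 below, beside 33.6% and 31.8% of all genes tested. The median log2 ratio was 0.70.

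Thioredoxin and peroxiredoxin genes had the most members above 2-fold, 7 of 10. Txn1, thioredoxin itself, was highest among them at 352 against 52.3 CPM (log2 ratio 2.73), and Glrx, a glutaredoxin, was lowest at 31.5 against 31.1 CPM (0.02). Among haem and iron genes 3 of 7 were above 2-fold. Ftl1, the ferritin light chain, was at 941 against 109 CPM (3.09), and Tfrc, the transferrin receptor, at 69.6 against 63.3 CPM (0.13). Ftl1 has near-identical copies in the genome that can share its reads, so its level is uncertain. Of the glutathione genes 4 of 11 were above 2-fold. Gpx1, a glutathione peroxidase, was at 394 against 15.6 CPM (4.57), the highest of the whole list. Slc3a2, the partner chain of Slc7a11 in the cystine-glutamate exchanger, was at 207 against 310 CPM (-0.58), with a ratio of 0.668 (0.605 to 0.736). The chains of the exchanger thus had intervals on opposite sides of 1.

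Fewer genes passed in the other groups. Of the NADPH-producing enzymes 2 of 6 were above 2-fold, with Taldo1, a transaldolase, at 165 against 57.6 CPM (ratio 2.87) and Idh1, the cytosolic isocitrate dehydrogenase, at 54.5 against 86.6 CPM (ratio 0.629). Of the regulators 1 of 6 was, Sqstm1, whose product p62 binds KEAP1, at 151 against 72.2 CPM (1.06). Cul3, the ligase scaffold that works with KEAP1, was at 80.2 against 105 CPM (-0.39). None of 4 genes for superoxide and peroxide removal was, from Sod1 (101 against 64.5 CPM, 0.65) to Sod3 (42.5 against 37.4 CPM, 0.18). Of 5 other targets 2 were, from Htatip2 (17.7 against 3.09 CPM, 2.19) to the carbonyl reductase Cbr1 (42.1 against 40.4 CPM, 0.06).

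**Figure D5:**
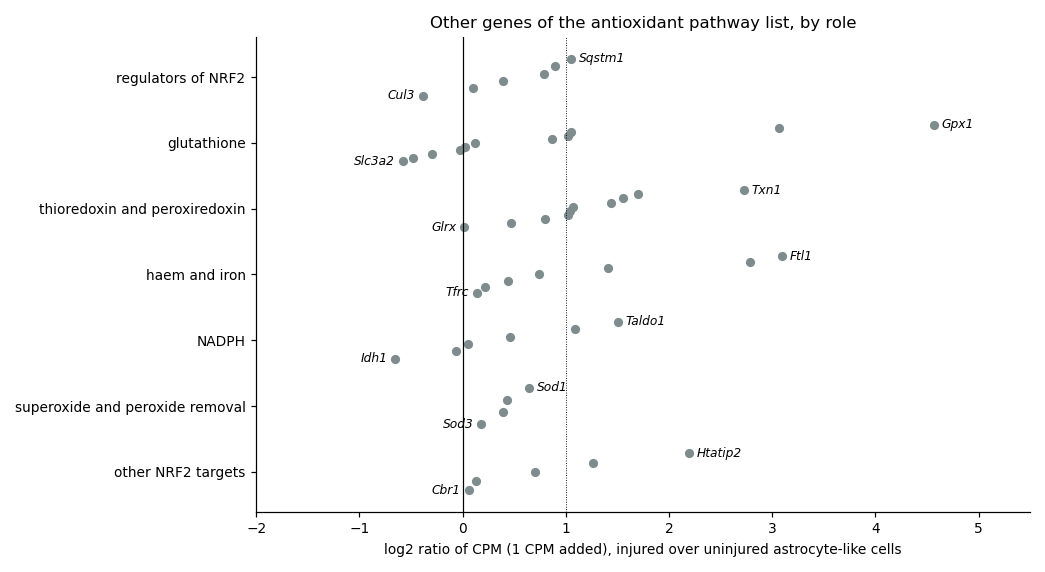
Log2 ratio of CPM (1 CPM added), injured over uninjured astrocyte-like cells, for the 49 pathway genes that passed the filter, grouped by role. The highest and lowest gene of each group are named and the dotted line marks 2-fold. Gpx1 (4.57) and Ftl1 (3.09) lie farthest right, and Idh1 (-0.66) and Slc3a2 (-0.58) farthest left.

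Over the 13 pools of a class and a library with at least 20 cells, the 8 genes did not share 1 pattern. Pearson's r of log2(CPM + 1) between them ran from -0.73 for Gclc with Srxn1 to 0.70 for Hmox1 with Txnrd1. Among 11213 genes, the pattern of Hmox1 was most like those of Npc2 (r = 0.87), Pgd (0.85) and Galns (0.85). For Nfe2l2 these were Ccrl2 (0.95), Tnfaip8 (0.93) and Zc3h12a (0.93), and for Srxn1 Tmem19 (0.87), Psmb10 (0.85) and Rabggtb (0.85). Gclc was nearest to Dnaaf3 (0.84), Cfap43 (0.83) and Ropn1l (0.82), genes of motile cilia. Slc7a11 was nearest to Svep1 (0.85), Lpp (0.85) and Ggt5 (0.84). Txnrd1 was nearest to Jpt1 (0.91), Rtn4 (0.87) and Sgpl1 (0.87), Gclm to Mrpl51 (0.90), Nudcd3 (0.90) and Hmg20b (0.90), and Nqo1 to Ociad1 (0.89), Cdh19 (0.89) and Anxa6 (0.89). The pools share 2 libraries and differ in depth, so these values describe and do not test a likeness.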

How the data were processed

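Gene expression of sorted cells was measured in 2 libraries, 1 per condition. The authors deposited raw UMI counts per gene and cell from Cell Ranger (7.1.0 in the file headers, 8.0.1 in the submitters' processing notes, which also name mm10), not normalized, with cells called before deposit. The 2 barcode libraries were not used here. The 8 genes, the pathway list and the markers were chosen with earlier results of these data known.

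Kept cells had above 500 and under 50000 gene UMIs, as in the study's filter. For clustering, each cell was scaled to a total of 10000 on a log scale, and 2000 variable genes, 15 components, 15 neighbours and Leiden resolution 0.5 gave the clusters (scanpy 1.11.5, igraph 0.11.9, Python 3.11.15). A cluster was named from fixed markers by its highest score (above 0.2), with at least 3 markers in 10% of its cells and no other class with more markers among its 10 leading genes; this naming rule followed a first look at the matrices. No doublets were removed.

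UMIs were summed per class and library and given as CPM. Shares have Clopper-Pearson, levels Poisson and ratios conditional binomial 95% intervals (scipy 1.17.1), which take UMIs as independent and cover counting error only. With 1 library per condition no test was possible. Log2 ratios add 1 CPM, and the 2-fold rule took genes with a mean of 10 CPM over both pools. Named genes were the 8 genes, the highest and lowest gene of each pathway group, the 3 genes most alike over pools, and markers. Ratios were also run on simulated independent Poisson counts. These follow the model of the intervals and leave out the clumping of UMIs in single cells, so they cannot check the intervals against it. Of the Ensembl identifiers, 99.6% matched GENCODE M21 (GRCm38). Alternatives covered pseudocount, cell filters, clustering, scaling, sex, doublet scores and leading cells.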

Additional observations from a re-analysis of the deposited data

Results flagged for a closer look

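For 2 genes the libraries differed in opposite directions in different classes, with both intervals off 1, and the difference between the classes was not tested. Nqo1 had a log2 ratio (1 CPM added) of 1.35 in astrocyte-like cells and of -2.91 in fibroblast-like cells, the latter on 2 and 9 UMIs. The fibroblast-like class included cluster 13, with 0 injured and 48 uninjured cells. Gclc had a log2 ratio of -0.83 in astrocyte-like cells and of 2.27 in endothelial-like cells, the latter on 71 and 2 UMIs.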

How the results depend on the processing

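All 13 settings listed at the outset for the astrocyte-like ratios kept the direction of each of the 8 genes, with Hmox1 from 3.30 to 5.19 and Gclc from -0.96 to -0.07 on the log2 scale. The -0.07 came from kept cells of any class with an Aldh1l1 UMI. A pseudocount of 10 CPM lowered the median ratio from 1.16 to 0.84 and the pathway genes above 2-fold from 19 to 12, and male cells alone gave 10. Between 3 and 5 of the 8 genes passed 2-fold under these alternatives, with Gclm above 2-fold in some and Nqo1 below in others. With the unnamed cluster 10 added to the class, Hmox1, Nqo1, Txnrd1 and Srxn1 passed. Uninjured cells of that cluster had Srxn1 at 15.2 CPM and Slc7a11 at 43.7 CPM, against 6.62 and 65.7 CPM in astrocyte-like ones. Shares of injured astrocyte-like cells with a UMI had a median over the 8 genes of 22.1%, and of 7.82% at 1000 gene UMIs.

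Leaving out the injured cells of cluster 1 was added after the data were seen. It reversed the sign of the median (-0.43), Hmox1 (-1.32), Nqo1 (-0.19), Txnrd1 (-0.32), Gclm (-0.33), Srxn1 (-0.89) and Nfe2l2 (-0.52). These values have no interval, and those of Hmox1, Nqo1 and Srxn1 rest on 1, 2 and 1 injured UMIs. Uninjured cells of cluster 1 were kept, and 1 of them held 59 of the 105 uninjured Hmox1 UMIs. Of the 5 genes that passed the filter, 1 was above 2-fold among 95 injured cells, beside 4.72% of all genes tested. Between microglia-like and astrocyte-like injured cells the median of 0.06 became -0.28 as a mean of CPM per cell and -0.61 without the 5 highest cells per pool (added later), and Hmox1 became -0.16 without the 32 macrophage-marked cells (added later). The cause of these changes was not tested. No paired analysis was possible because only 1 gene library stood for a condition, with no replicate numbers to pair.

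Depth limits Nqo1 and Srxn1 outside astrocyte-like cells. In the 31 uninjured microglia-like and 31 uninjured ependymal-like cells most genes have few UMIs, other than Nfe2l2 (53) and Txnrd1 (23) in the former and Gclc (24) in the latter.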
